A study of Mus musculus with 27 samples.

Results

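Histone H3 carrying a single methyl group on lysine 4 (H3K4me1) was mapped in mouse hematopoietic progenitor cells (HPC) at 2 ages, and the peaks of fetal cells were compared with those of adult cells by position. The fetal list held 177310 peaks and the adult list 126502, which together make 303812 of the 901169 peaks in the 8 lists of the series. A peak was called shared when at least 1 bp of it lay in a peak of the other age, and fetal-only or adult-only when no base did. By this rule 70078 fetal peaks, 39.5% of the fetal list, were fetal-only, and 28267 adult peaks, 22.3% of the adult list, were adult-only. The shared class held 107232 fetal and 98235 adult peaks, which merged into 80470 loci.

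The fetal group consisted of 3 HPC libraries from embryonic day E16.5 and the adult group of 3 HPC libraries from mice of 8 weeks, all on the B6 background with no other allele or treatment named. Cells were sorted, fixed and profiled by ChIPmentation, a form of chromatin immunoprecipitation in which the Tn5 transposase cuts and tags the DNA while it is still bound to the antibody beads. Neither the sort markers nor the organ of origin is stated in the labels. Because each list pools its libraries, no value below has a spread over samples and no comparison of the ages has a test. The 95% intervals (Wilson for shares, Newcombe for differences) cover counting error only and treat neighbouring peaks as independent. Peak heights are given as the fold enrichment and −log10 p that the authors' peak caller assigned, and are compared within a list only. The other lists used here are H3K27ac (acetylated lysine 27) of HPC at each age, H3K4me1 of hematopoietic stem cells (HSC) at each age, and a further lysine 27 set of HPC. The titles of that further set say H3K27me3 and its mark field says H3K27ac, so it is called the second K27 set and its mark is not taken as known.

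H3K4me1 is written by the MLL3 and MLL4 (KMT2C and KMT2D) complexes and lies on enhancers, whether they are active or only primed. H3K27ac on the same nucleosomes goes with active enhancers and promoters. At active promoters that are rich in CpG dinucleotides, H3K4me1 usually flanks the start site, and trimethylated lysine 4 takes its place at the start itself. In blood, progenitors carry H3K4me1 at enhancers of several lineages before a lineage is chosen.

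The labelled cell type was checked against markers. Genes that mark blood progenitors carried many peaks at both ages, with 87 fetal and 57 adult peaks at Kit, the stem cell factor receptor, 111 and 76 at Runx1, 38 and 31 at Myb, 18 and 13 at Gata2 and 22 and 22 at Cd34. Across 18 hepatocyte genes there were 46 fetal and 45 adult peaks, and Alb, the gene of serum albumin, had 1 fetal and 2 adult peaks. Markers of other blood and vessel cells were not empty: 15 endothelial genes carried 254 fetal and 144 adult peaks, 15 B cell genes 106 and 77, 17 T and NK cell genes 125 and 84, 15 macrophage genes 135 and 87, and 16 stromal genes 221 and 144. Peaks of H3K4me1 in a bulk library do not say which cell carried them, so their share from other cells in the sort was not tested.

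Sequences are shown first for start regions that were marked at 1 age alone, because fetal-only and adult-only peaks differed in their share at gene starts and this went with CpG content. Of 21262 start windows in the RefSeq table (GRCm38.p6, 250 bases before to 50 bases after a start, 17491 genes), 3623 (17.0%) were touched by an adult peak alone, 463 (2.18%) by a fetal peak alone, 3229 by both and 13947 by neither. The median window touched in the adult alone held 20 CpG dinucleotides and 62.7% G or C. Windows touched in the fetal list alone held a median of 8 CpG and 49.7% G or C, those touched at both ages 9 and 54.0%, and those touched at neither 11 and 55.3%. The 250 bases upstream of 6 starts follow, those of the listed genes whose window was touched by the strongest age-only peaks, with each CpG in capitals. The first 3 were touched by adult-only peaks and the last 3 by fetal-only peaks.

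Socs3, chr11:117969367-117969616, minus strand: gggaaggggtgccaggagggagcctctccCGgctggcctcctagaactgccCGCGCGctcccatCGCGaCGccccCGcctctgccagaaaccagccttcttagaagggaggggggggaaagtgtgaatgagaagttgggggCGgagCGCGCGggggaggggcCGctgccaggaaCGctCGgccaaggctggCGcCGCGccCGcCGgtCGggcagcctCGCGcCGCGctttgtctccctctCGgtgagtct

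Tbx21, chr11:97115332-97115581, minus strand: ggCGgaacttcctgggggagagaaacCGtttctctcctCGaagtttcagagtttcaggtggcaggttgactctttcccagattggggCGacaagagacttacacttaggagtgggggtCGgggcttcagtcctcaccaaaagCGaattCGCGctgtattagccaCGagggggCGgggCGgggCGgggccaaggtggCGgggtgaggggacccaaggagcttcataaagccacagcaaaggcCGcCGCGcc

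Hoxd9, chr2:74697513-74697762, plus strand: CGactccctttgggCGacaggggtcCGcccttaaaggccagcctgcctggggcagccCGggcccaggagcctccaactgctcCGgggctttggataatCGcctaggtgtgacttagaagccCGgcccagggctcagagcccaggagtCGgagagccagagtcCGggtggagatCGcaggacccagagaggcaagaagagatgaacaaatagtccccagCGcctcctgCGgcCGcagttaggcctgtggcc

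Hoxb8, chr11:96281655-96281904, plus strand: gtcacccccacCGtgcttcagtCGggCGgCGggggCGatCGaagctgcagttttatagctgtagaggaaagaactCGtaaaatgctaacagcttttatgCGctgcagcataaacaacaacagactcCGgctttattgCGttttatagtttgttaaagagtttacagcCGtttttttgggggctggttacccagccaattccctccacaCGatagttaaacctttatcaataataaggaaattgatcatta

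Hoxa5, chr6:52204588-52204837, minus strand: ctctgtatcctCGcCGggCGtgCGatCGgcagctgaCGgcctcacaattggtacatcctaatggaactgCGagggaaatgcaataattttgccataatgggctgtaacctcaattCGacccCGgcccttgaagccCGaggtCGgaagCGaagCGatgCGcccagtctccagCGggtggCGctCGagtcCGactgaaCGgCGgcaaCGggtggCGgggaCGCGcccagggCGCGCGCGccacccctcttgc

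Marco, chr1:120505025-120505274, minus strand: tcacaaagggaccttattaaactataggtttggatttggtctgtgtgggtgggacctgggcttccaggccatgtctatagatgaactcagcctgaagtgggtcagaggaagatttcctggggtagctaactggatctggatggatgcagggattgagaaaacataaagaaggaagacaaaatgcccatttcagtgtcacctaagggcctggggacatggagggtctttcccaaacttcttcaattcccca

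Socs3 encodes an inhibitor of cytokine receptor signalling. Its 250 printed bases held 26 CpG, and an adult-only peak of 1672 bp (authors' fold 5.13) reached into them, with an adult but no fetal H3K27ac peak on the start window. Tbx21 encodes the T-box factor T-bet of type 1 lymphocytes, with 16 CpG and an adult-only peak of 3001 bp (fold 4.92). Hoxd9 belongs to the HoxD cluster, with 13 CpG and an adult-only peak of 1189 bp (fold 4.77). The adult HSC list also had a peak at the start windows of Tbx21 and Hoxd9, and the fetal HSC list had none at any of the 3. Hoxb8 and Hoxa5, homeobox genes of the HoxB and HoxA clusters, held 12 and 28 CpG, and their fetal-only peaks were 455 bp (fold 3.51) and 913 bp (fold 3.07) wide. Both of these windows had an H3K4me1 peak in HSC at each age, so they were not fetal-only in HSC. Marco, a scavenger receptor of macrophages, held no CpG in the printed bases, under a fetal-only peak of 938 bp (fold 2.59).

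The strongest peaks were almost all shared. Each list was ordered by −log10 p and split into 10 bins of equal size. In the strongest bin, 1.09% of fetal peaks (193 of 17731; 95% interval 0.946 to 1.25) and 0.925% of adult peaks (117 of 12651; 0.772 to 1.11) were age-only. These shares reached 41.0% and 18.3% in bin 5 and 67.6% and 46.0% in the weakest. In every bin the fetal share was the higher of the pair. The fetal list is the longer one, and the order of the overall shares was not kept at equal length: with the fetal list cut to its strongest 126502 peaks, 29.4% of fetal and 30.2% of adult peaks were age-only. Peaks at or above the median −log10 p of their own list, 10.3 for fetal and 13.0 for adult peaks, are called strong peaks here. Among them 19.7% of the fetal list (17820 of 90387) were fetal-only and 8.32% of the adult list (5339 of 64134) adult-only.

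**Figure D1:**
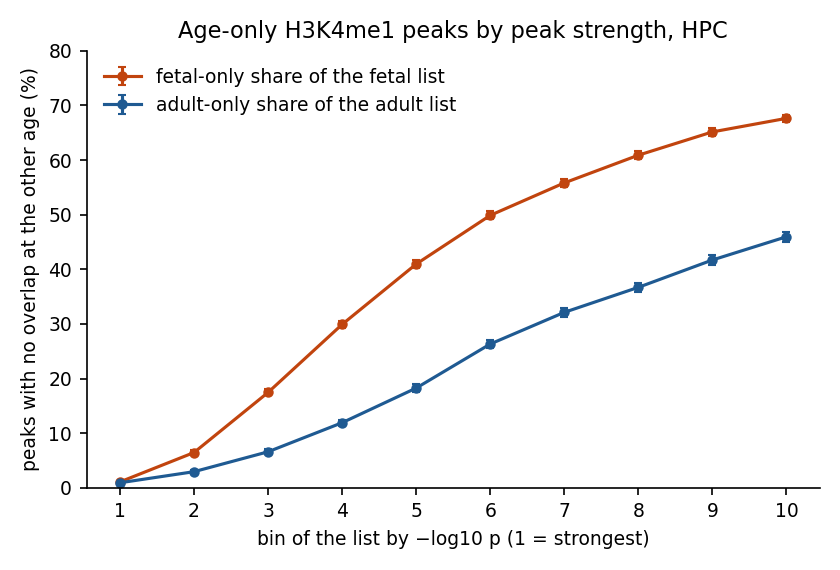
Percentage of HPC H3K4me1 peaks with no overlap at the other age (vertical axis) in 10 equal bins of each list ordered by −log10 p (horizontal axis, 1 is strongest), with 95% Wilson intervals. Both lines start near 1% and the fetal line (red) reaches 67.6% in the weakest bin against 46.0% for the adult line (blue).

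Some peaks lay close to the boundary of the rule. At most 10 bp of overlap held 266 fetal and 147 adult peaks in the shared class, with a median fold of 2.52 and 2.47. On the other side, 3074 fetal-only peaks (4.39%) and 1751 adult-only peaks (6.19%) lay within 100 bp of a peak of the other age, with a median fold of 2.55 and 2.52. Within 500 bp, a distance near the median width of these peaks, lay 16550 fetal-only (23.6%) and 7711 adult-only peaks (27.3%).

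Age-only peaks were narrow. The median width was 409 bp for fetal-only peaks (quartiles 300 and 597) and 451 bp for adult-only peaks (309 and 714), against 965 bp for shared fetal and 1086 bp for shared adult peaks. Fetal-only peaks covered 35.8 Mb and shared fetal peaks 164 Mb, and the adult figures were 16.8 Mb and 159 Mb. At 2 kb or wider there were 620 fetal-only and 516 adult-only peaks, which were 2.41% and 2.08% of the peaks of that width in their lists. Below 300 bp, 71.6% of fetal and 48.3% of adult peaks were age-only.

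Shared loci were cut up differently at the 2 ages. In 52631 cases a single fetal peak met a single adult peak, and their median widths were 985 bp (fetal) and 980 bp (adult). Among these pairs the adult peak was the wider in 43.9% of the 42522 that lay over 1 kb from a gene start, and in 56.0% of the 10109 nearer ones. A further 20241 shared adult peaks (20.6%) spanned 2 or more fetal peaks, and 14006 shared fetal peaks (13.1%) spanned 2 or more adult peaks. The largest adult domains by this count, named after their values were seen, lay at Gse1, Adgrg3 and Dntt. The adult peak at Gse1, 57.2 kb wide, met 30 fetal peaks that together covered 43.9 kb. The one at Adgrg3, an adhesion receptor gene, was 22.0 kb wide and met 15 fetal peaks covering 9.68 kb, and the one at Dntt was 19.3 kb wide and met 15 covering 8.59 kb. Dntt encodes terminal transferase, which adds untemplated bases to antigen receptor joints. Another, over the transcriptional coactivator gene Zmiz1, was the widest adult peak at 76.1 kb and met 14 fetal peaks covering 71.8 kb. In the other direction a fetal peak of 24.6 kb at Ikzf2, the gene of the zinc finger factor Helios, met 13 adult peaks covering 18.4 kb. At Ptprc, which encodes the pan-leukocyte antigen CD45, a fetal peak of 21.8 kb met 12 adult peaks covering 18.7 kb. A fetal peak of 21.7 kb at Meis1, a homeobox cofactor of stem cells, met 10 adult peaks covering 21.3 kb. All 7 of these broad peaks were overlapped by H3K27ac at both ages.

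Fetal-only peaks were nearly absent from gene starts and adult-only peaks were not. Within 1 kb of a start lay 1.84% of fetal-only peaks (1290 of 70078; 1.74 to 1.94) and 10.8% of adult-only peaks (3056 of 28267; 10.5 to 11.2), a difference of 8.97 points (8.60 to 9.35). The shared peaks were alike in total, at 14.6% of the fetal and 15.5% of the adult list, but not by strength. In the strongest of 5 equal bins 18.3% of shared fetal and 21.3% of shared adult peaks were near a start. In the weakest bin these shares were 9.81% and 4.09%. The contrast between fetal-only and adult-only peaks was present in each of the 5 bins. In the strongest of them 16 of 1339 fetal-only peaks (1.19%) and 81 of 491 adult-only peaks were near a start, and in the weakest 1.67% against 6.79%. It was also present at each width, from 1.99% against 6.41% below 300 bp to 1.61% against 17.8% at 2 kb or more. Fetal-only peaks lay a median of 39.0 kb from the nearest listed start and adult-only peaks 29.2 kb. Shared fetal peaks lay at 24.7 kb and shared adult peaks at 25.5 kb. Starts were listed for 17491 of 21883 coding genes and for none on chromosome 18, which held 2446 fetal-only and 887 adult-only peaks. Peaks at unlisted starts were counted as far from a start, so the near-start shares may be too low and these medians too high. More fetal-only peaks were inside the body of a coding gene, 64.5% against 57.2% of adult-only peaks, a difference of 7.31 points (6.63 to 7.99).

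Coverage around the starts showed where the ages parted. Of 21237 distinct starts, the start base itself was covered by a fetal peak in 7.17% and by an adult peak in 18.5%. At 1 kb downstream the figures were 42.1% and 48.7%, and at 2 kb downstream 37.5% and 36.5%. At 2 kb upstream the order was reversed, with 23.1% of positions covered in the fetal and 20.8% in the adult list. So the gap in H3K4me1 at the start was deeper in the fetal list, while the flanks differed less. HSC, from separate libraries, had the same gap, with 5.78% of start bases covered in the fetal and 16.8% in the adult list, and 1665 of 103951 fetal-only (1.60%) against 3935 of 35745 adult-only HSC peaks lay within 1 kb of a start. For H3K27ac of HPC the shares were 1.11% of fetal-only and 5.71% of adult-only peaks.

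**Figure D2:**
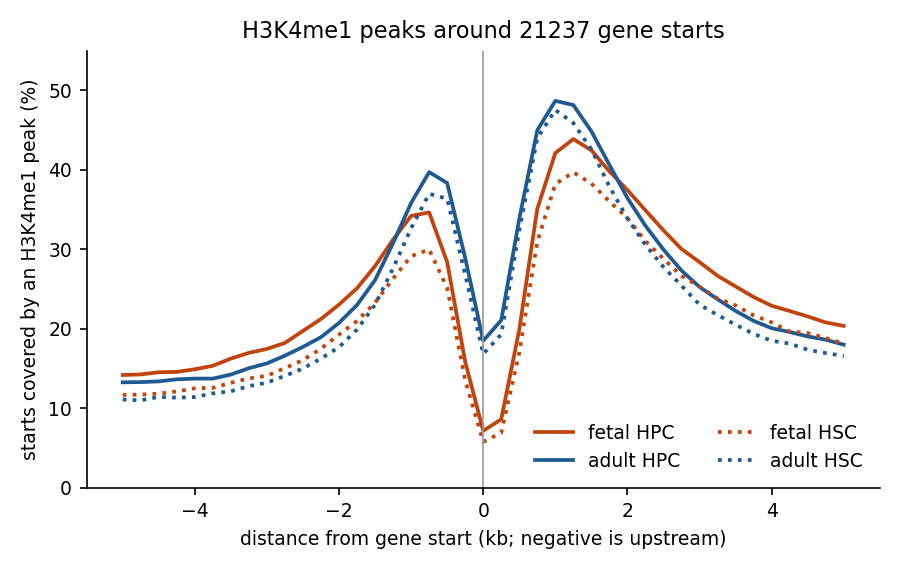
Percentage of 21237 gene starts covered by an H3K4me1 peak (vertical axis) at distances up to 5 kb on either side (horizontal axis, kb, negative is upstream) in HPC (solid) and HSC (dotted). At the start itself the fetal HPC line (red) falls to 7.17% and the adult HPC line (blue) to 18.5%, and the lines come together or cross by 2 kb.

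The ratio of adult to fetal coverage rose with CpG content, while the difference in points did not rise throughout. Among 6035 start windows with 0 to 4 CpG, 16.4% were touched by a fetal and 17.7% by an adult peak. Among 4426 windows with 10 to 19 CpG the shares were 25.8% and 48.5%, among 4357 windows with 20 to 29 CpG they were 10.6% and 35.9%, and among 3283 windows with 30 or more CpG they were 2.89% and 24.2%, an 8.35-fold ratio. In HSC the windows with 30 or more CpG had 2.01% and 21.5%. Adult H3K27ac was more frequent than fetal H3K27ac in every CpG bin, so this was not particular to CpG-rich windows. The shares were 10.8% against 6.89% at 0 to 4 CpG and 84.8% against 69.6% at 30 or more. Of the windows touched by adult HPC H3K4me1 alone, 72.1% were touched by adult and 12.8% by fetal HSC H3K4me1. What in the libraries or the chromatin goes with this was not tested.

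Short motifs of blood transcription factors were counted in the same windows on both strands, as a description. The GATA motif AGATAA occurred in 5.71% of windows touched in the adult alone, in 12.5% of those touched in the fetal list alone and in 9.65% of all windows. The interferon regulatory factor motif GAAANNGAA occurred in 5.82%, 13.0% and 8.14%, and the C/EBP motif TTGCNNAA in 6.90%, 11.9% and 10.2%. The E-box CAGCTG occurred in 651 of 3623 adult-alone windows, in 16.8% of fetal-alone windows and in 15.6% of all windows. The windows touched in the adult alone are richer in G and C, and the part of base composition in these shares was not tested.

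Genes with a peak near a start at 1 age alone were a small group. Of 17491 genes, 10551 had a peak of each age within 1 kb of a start, 354 (2.02%) a fetal peak alone, 1177 (6.73%) an adult peak alone and 5409 neither. In the list of myeloid genes 5 of 25 had an adult peak alone there, namely Cebpa and Cebpb, which encode the C/EBP factors that drive granulocyte and monocyte fate, Csf2ra, a chain of the GM-CSF receptor, Ctsg, the neutrophil protease cathepsin G, and the monocyte antigen gene Ly6c2. A fetal peak alone was found for 1 of the 25, Ms4a3, a gene of granulocyte and monocyte progenitors. In the list of developmental regulators that are silent in blood, 7 of 34 had an adult peak alone (Barx1, Foxa2, Hoxd13, Hoxd9, Neurog1, Six2 and Sox2) and 1 a fetal peak alone (Evx2). All 27 genes of interferon response and antigen presentation with a start in the table had a peak of each age there. Of 14 T and NK cell genes with a start in the table, 6 had both, 4 neither, Tbx21 an adult peak alone, and Cd3d, Cd3e and Cd3g, chains of the T cell receptor complex, a fetal peak alone.

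The let-7 microRNAs gave a small family in which the ages differed from member to member. Lin28b, described below, encodes an RNA-binding protein that blocks the maturation of let-7, and let-7 is known to be low in fetal and higher in adult blood stem cells. Of 1005 microRNA hairpins, 54 (5.37%) had a fetal peak alone within 1 kb and 69 (6.87%) an adult peak alone. Among the 12 hairpins of the let-7 family, miR-98 included, 4 had both, 2 a fetal peak alone, 2 an adult peak alone and 4 neither. The mature strands of those with a peak of 1 age alone within 1 kb share the seed GAGGUAG (bases 2 to 8, in capitals), and come from RefSeq on GRCm38.p6.

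let-7b-5p, chr15:85707325-85707346, plus strand: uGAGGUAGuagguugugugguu

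let-7c-5p, chr15:85706616-85706637, plus strand: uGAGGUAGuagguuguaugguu

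let-7d-5p, chr13:48536078-48536099, minus strand: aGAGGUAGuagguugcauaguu

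let-7g-5p, chr9:106178846-106178867, plus strand: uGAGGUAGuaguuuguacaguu

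miR-126a-3p, chr2:26591402-26591423, plus strand: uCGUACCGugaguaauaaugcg

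The hairpins of let-7b and let-7c-2 are neighbours on chromosome 15. The adult list had a peak of 4927 bp (fold 5.65) over the let-7c-2 hairpin and 227 bp from let-7b, while the nearest fetal peaks were 2166 bp and 2482 bp away, so that peak was shared as a locus but lay within 1 kb of the hairpins in the adult list alone. At let-7d a fetal-only peak of 413 bp (fold 2.59) lay 88 bp away. The nearest adult peak, a shared one of 7547 bp (fold 4.97), lay 1601 bp away and covered the hairpins of let-7a-1 and let-7f-1. At let-7g a fetal-only peak of 359 bp (fold 1.54) lay 470 bp away and a shared adult peak of 4500 bp (fold 7.36) 1868 bp away. These 2 fetal-only peaks were of low fold, below the fetal list's median of 2.88. The calls at these 2 hairpins thus rest on the 1 kb limit. The printed miR-126a-3p, a microRNA of blood stem cells and endothelium with another seed, was chosen after its values were seen. A shared adult peak of 5051 bp (fold 7.88) lay over its hairpin inside Egfl7, with the nearest fetal peak, of 451 bp and fold 2.21, at 1014 bp. The 6 hairpins of the miR-106a to miR-363 cluster on chromosome X, also chosen after their values were seen, all lay within 1 kb of the same fetal-only peak of 374 bp (fold 2.55) and at least 2975 bp from any adult peak.

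H3K27ac marked age-only peaks far less often than shared peaks. Fetal H3K27ac overlapped 4.42% of fetal-only and 28.9% of shared fetal peaks, and adult H3K27ac overlapped 16.9% of adult-only and 44.2% of shared adult peaks. Since adult-only peaks were more often at starts, the shares were also taken over 1 kb away from listed starts. There they were 4.11% for fetal-only and 13.8% for adult-only peaks, a difference of 9.66 points (9.21 to 10.1). Peaks at starts that were not listed remain in these shares. In the strongest of the 5 bins, 17.6% of fetal-only peaks had fetal H3K27ac and 54.0% of adult-only peaks had adult H3K27ac. The adult H3K27ac list holds 63108 peaks over 71.8 Mb and the fetal list 50858 over 45.0 Mb, and the part of this difference in the shares was not tested. H3K27ac of the other age was rarer: adult H3K27ac overlapped 2.28% of fetal-only peaks and fetal H3K27ac 5.01% of adult-only peaks.

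Most age-only peaks of HPC recurred in HSC of the same age. Fetal HSC H3K4me1 overlapped 63.7% of fetal-only peaks (63.3 to 64.0) and adult HSC H3K4me1 overlapped 17.4%. For adult-only peaks the adult HSC list overlapped 52.7% (52.1 to 53.3) and the fetal HSC list 19.8%. In the strongest of the 5 bins, 99.0% of fetal-only peaks had a fetal HSC peak and 41.7% an adult one, and 93.9% of adult-only peaks had an adult HSC peak and 27.1% a fetal one. The second K27 set overlapped few peaks of any class: its fetal list touched 3.70% of adult-only, 1.90% of fetal-only and 2.91% of shared fetal peaks, and its adult list 1.59%, 1.40% and 1.36%.

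**Figure D3:**
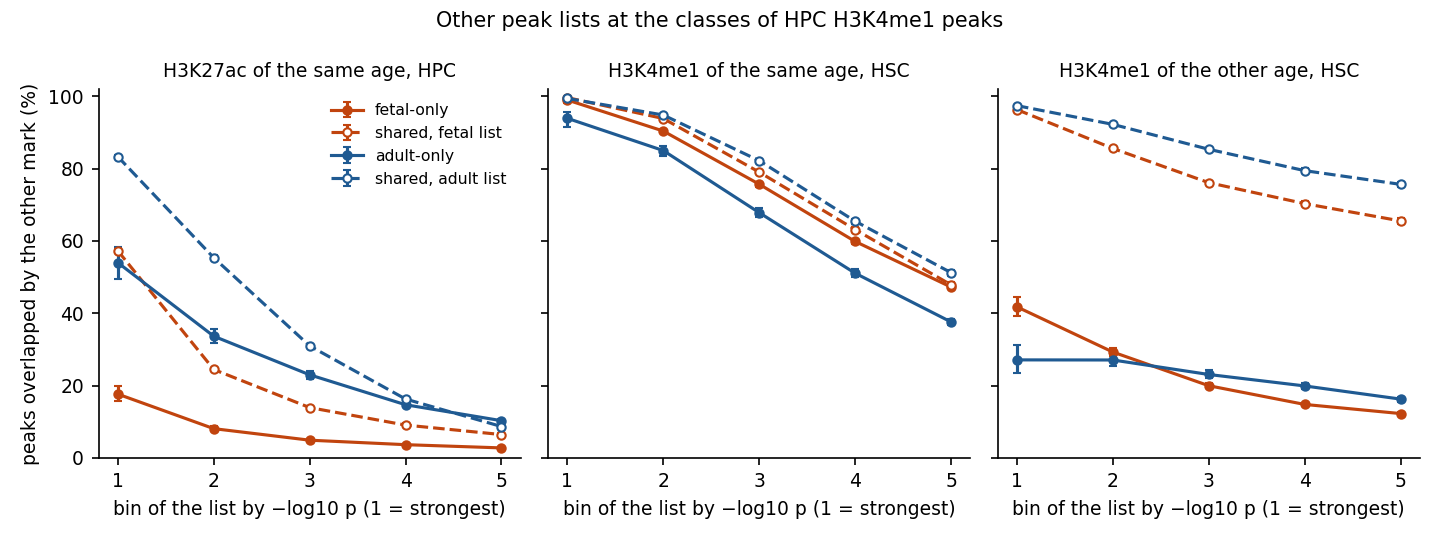
Percentage of HPC H3K4me1 peaks overlapped by H3K27ac of the same age (left), HSC H3K4me1 of the same age (centre) and HSC H3K4me1 of the other age (right), by 5 equal bins of −log10 p within each list (horizontal axis, 1 is strongest), with 95% Wilson intervals. Filled points are age-only and open points shared peaks. In the strongest bin 99.0% of fetal-only and 93.9% of adult-only peaks recur in HSC of their age.

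Each peak was assigned to its nearest coding gene within 100 kb, and a gene was said to lean to an age when its strong age-only peaks of that age outnumbered those of the other by 2 or more. Of 17355 genes with a peak, 2935 (16.9%) leaned fetal and 596 (3.43%) leaned adult. Over all genes 76.5% of strong age-only peaks were fetal-only, and the lists below are read against that share and the 16.9% and 3.43%. The cut for a strong peak was higher in the adult list, so the fetal excess in these calls is not a like comparison. With the lists cut to equal length the fetal-only share over all genes was 66.7%. Genes leaning fetal were long, with a median of 70.8 kb against 39.4 kb for genes leaning adult and 22.0 kb over all, and lay where there were fewer genes, 9 in the surrounding 1 Mb against 14. A longer gene offers more room for peaks, and the part of gene length in the calls was not tested.

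The gene with the most strong fetal-only peaks was Pde4d, a cyclic AMP phosphodiesterase gene spanning 1302 kb, with 49 strong fetal-only and 2 strong adult-only peaks. Mecom followed with 42 and 0, which encodes the EVI1 factor that maintains stem cells. Of its 217 fetal peaks 160 were fetal-only, and of its 91 adult peaks 6 were adult-only, and the fetal HSC list had 351 peaks there against 168 in the adult HSC list. Foxp1, a forkhead factor of B cell development, had 33 and 3. Tcf4, whose E protein serves dendritic and B cells, had 30 and 0, and Fam155a, a sodium leak channel subunit gene, had 29 and 1. Tgfbr3, the TGF-beta co-receptor betaglycan, had 27 and 0.

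The genes leaning furthest to the adult held fewer age-only peaks each. Atp2b2, a plasma membrane calcium pump gene, had 11 strong adult-only and 0 fetal-only peaks, with 20 adult and 5 fetal peaks in all. Clmn had 8 strong adult-only and no fetal-only peaks, with 12 adult and 0 fetal H3K27ac peaks. Nrg2, a neuregulin gene, had 8 and 0. Nav2 had 10 and 1, of 49 adult and 41 fetal peaks, and Esr1, the estrogen receptor gene, 9 and 1, of 43 and 26. At these 5 genes the adult H3K27ac list held the larger number of peaks, from 6 against 0 at Atp2b2 to 25 against 9 at Nav2.

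Genes of the fetal stem cell programme carried one of the highest fetal shares of the 23 lists. Of their 64 strong age-only peaks, 61 (95.3%) were fetal-only, and 7 of 12 genes leaned fetal and none adult, with a median difference of 2.5 peaks per gene against 0 over all genes. With genes assigned within 20 kb the share was 94.0%, below the 95.6% of the stem and progenitor transcription factors. This list was built from genes known for fetal expression, so its direction is not an independent result. Hmga2, a chromatin protein of fetal stem cell self-renewal, had 64 fetal and 44 adult peaks, of which 33 and 2 were age-only and 16 and 0 strong. Igf2bp3, an RNA-binding protein gene downstream of the LIN28B axis, had 29 and 9 peaks, 11 of them strong and fetal-only. Igf2bp2 had 9 and Sox17, a factor of fetal stem cells, 8 strong fetal-only peaks, and neither had a strong adult-only one.

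Lin28b itself had 17 fetal and 4 adult peaks, 13 of the fetal ones fetal-only and 8 of these strong. The strongest fetal-only peak, chr10:45464780-45468450 in the gene body, was 3671 bp wide with a fold of 6.59 and overlapped HSC H3K4me1 of each age. The next one, chr10:45461710-45463004, was 1295 bp wide with a fold of 4.03 and overlapped fetal HSC H3K4me1 alone. Fetal H3K27ac had 6 peaks at the gene and adult H3K27ac 0. The second K27 set went the other way, with 4 fetal and 19 adult peaks. Over the 12 genes of the list that set had 50 fetal and 243 adult peaks, of which Gpc3 held 1 and 76 and Ncam1 33 and 119, against 40106 and 40784 over all genes. It had more adult than fetal peaks at 7 of the 12 genes and fewer at 2, Hmga2 and Cdkn1c, against 2280 and 3433 of all 17355 genes.

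Stem and progenitor transcription factors had 152 of 162 strong age-only peaks fetal-only (93.8%), with 15 of 24 genes leaning fetal and none adult. Besides Mecom, Mllt3, a cofactor of stem cell self-renewal, had 27 strong fetal-only peaks and no adult-only one, and its total was 133 fetal and 59 adult peaks. The chromatin modifiers of H3K4 and H3K27, among them enzymes that write and erase these marks, had 59 and 5, with 14 of 27 genes leaning fetal. Jarid2, a cofactor of Polycomb complex 2, had 11 and 2, and Kmt2c, which encodes an H3K4 monomethylase, 8 and 0. Surface and niche receptors had 57 and 5 strong age-only peaks, and 11 of 20 leaned fetal, with Kit at 11 and 0 and Itga4, the integrin alpha 4 gene of homing, at 9 and 0. The single adult-leaning gene there was Ly6a, which encodes the stem cell marker Sca-1, at 0 and 2, with 10 adult against 1 fetal H3K27ac peak.

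**Figure D4:**
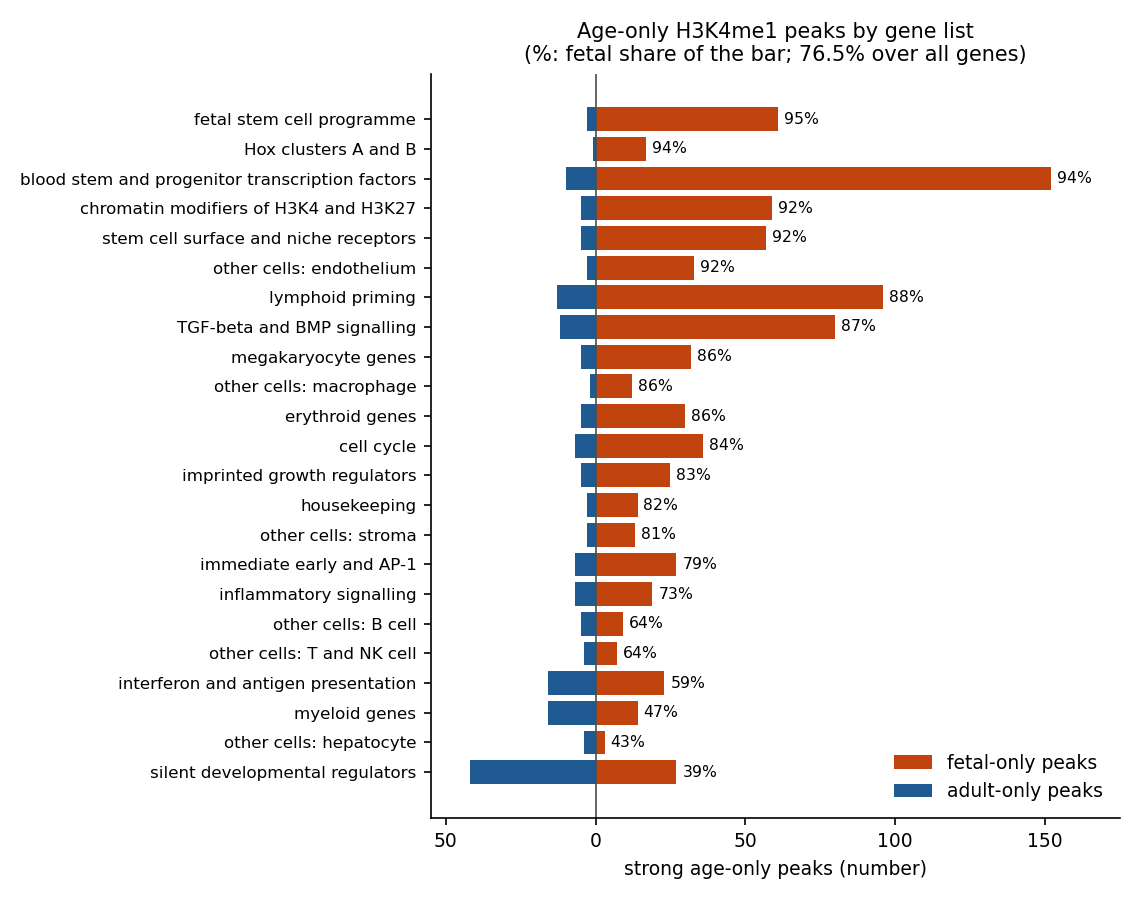
Number of strong age-only H3K4me1 peaks at the genes of each list (horizontal axis), fetal-only to the right (red) and adult-only to the left (blue), ordered by the fetal share printed beside each bar. Over all genes the fetal share is 76.5%, and it runs from 95% at the fetal stem cell programme to 39% at silent developmental regulators.

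The TGF-beta and BMP pathway, which keeps stem cells quiescent, had 80 strong fetal-only and 12 adult-only peaks, and 10 of 23 genes leaned fetal. They were the receptor and co-receptor genes Tgfbr1, Tgfbr2, Tgfbr3, Bmpr2 and Acvr1b, the signal carriers Smad2, Smad3 and Smad4, and the inhibitors Smad6 and Skil. Bmpr2 had 12 and 0, second to Tgfbr3. Megakaryocyte genes had 32 and 5, with 8 of 18 leaning fetal, among them Selp (P-selectin) at 4 and 0 and Vwf (von Willebrand factor) at 4 and 1. Erythroid genes had 30 and 5 (85.7% fetal), with 4 of 24 leaning fetal and 1 adult. There Sox6, a repressor of embryonic globin, had 13 and 2, and Ank1, the ankyrin of the red cell skeleton, leaned adult at 0 and 3. The adult globin genes Hbb-bt and Hbb-bs had 4 and 2 fetal and 3 and 3 adult peaks, and none was age-only. Within 1 kb of its start Hbb-bs had a fetal peak alone. The embryonic globin gene Hbb-y leaned fetal, with 6 fetal peaks and 1 adult peak. Of these 5 were fetal-only, 2 of them strong, and 0 adult-only. Hbb-bh1 had 1 fetal peak, strong and fetal-only, and 0 adult peaks. Lymphoid priming genes had 96 and 13, most of it at Foxp1 and at Rora, an orphan receptor gene of innate lymphoid cells, with 20 and 3.

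Hox genes of clusters A and B had 17 fetal-only and 1 adult-only strong peaks, led by Hoxa3 (7 and 0) and Hoxb3 (4 and 0). Imprinted growth regulators had 25 and 5 (83.3% fetal), with Dlk1 and Grb10 at 7 and 1 each. Cell cycle genes had 36 and 7 (83.7%), with 5 of 30 leaning fetal and Rb1 and Mki67 at 7 and 0 each. Immediate early genes had 27 and 7 (79.4%, near the 76.5% over all genes), with 4 of 22 leaning fetal and Klf6 at 9 and 0. Inflammatory signalling genes had 19 and 7 (73.1%, below that over all genes), with 4 of 26 leaning fetal. Housekeeping genes had 14 and 3, a fetal share of 82.4%, which gives a scale for these shares. The endothelial markers had 33 and 3, with 7 of 15 leaning fetal and Pecam1 at 10 and 0. Blood stem cells also express several of them, and the part of vessel cells in the fetal-only peaks was not tested.

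Myeloid genes were one of 3 lists in which adult-only peaks were at least as many as fetal-only ones. They had 14 strong fetal-only and 16 strong adult-only peaks (46.7% fetal), with 3 of 30 genes leaning fetal and 2 adult. This order changed when an overlap of at least 50% of the shorter peak was asked for, where fetal-only peaks were 1 more than adult-only ones. Most of the 16 adult-only peaks lay at 2 genes. Irf8, the factor of monocyte and dendritic fate, had 5 strong adult-only and no fetal-only peaks, of 37 adult and 33 fetal peaks in all. Fcgr3, a low-affinity IgG receptor gene, had 6 and 0. Its strongest site, chr1:171065196-171065514, was the adult-only peak with the highest −log10 p and the highest fold (10.2), but was only 319 bp wide, carried no H3K27ac, and overlapped an HSC peak at each age. Fcgr3 lies among near-identical Fc receptor genes, so reads there may be split between copies.

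The adult list held more H3K27ac peaks than the fetal list at 20 of 30 myeloid genes and fewer at 3, against 6521 and 3977 of 17355 genes in all. The other 7, among them the myeloperoxidase gene Mpo with 3 peaks at each age, had equal numbers. This direction was not particular to myeloid genes. It was 18 and 3 of 26 inflammatory genes, 16 and 6 of 24 stem and progenitor factors, and 10 and 0 of 17 T and NK cell genes. The fetal stem cell programme (2 and 5 of 12) and the chromatin modifiers (11 and 13 of 27) went the other way. Cebpa had 20 fetal and 12 adult H3K4me1 peaks with 2 and 1 age-only, but 1 fetal and 18 adult H3K27ac peaks. Cebpb had 42 and 38 H3K4me1 peaks, 4 and 15 age-only, and 8 and 38 H3K27ac peaks. Irf8 had 4 fetal and 29 adult H3K27ac peaks. Spi1, which encodes PU.1 and stands in the list of stem and progenitor factors, had 17 and 15 H3K4me1 peaks with 2 and 0 age-only, and 4 and 8 H3K27ac peaks. Over the myeloid list, 48 of 148 shared adult H3K4me1 peaks had adult H3K27ac alone and 2 had fetal H3K27ac alone. The numbers were 24 and 0 of 68 at T and NK cell genes, and 15198 and 3273 of 91949 over all genes. Gata2 and Cd34 had no strong age-only peak at either age.

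**Figure D5:**
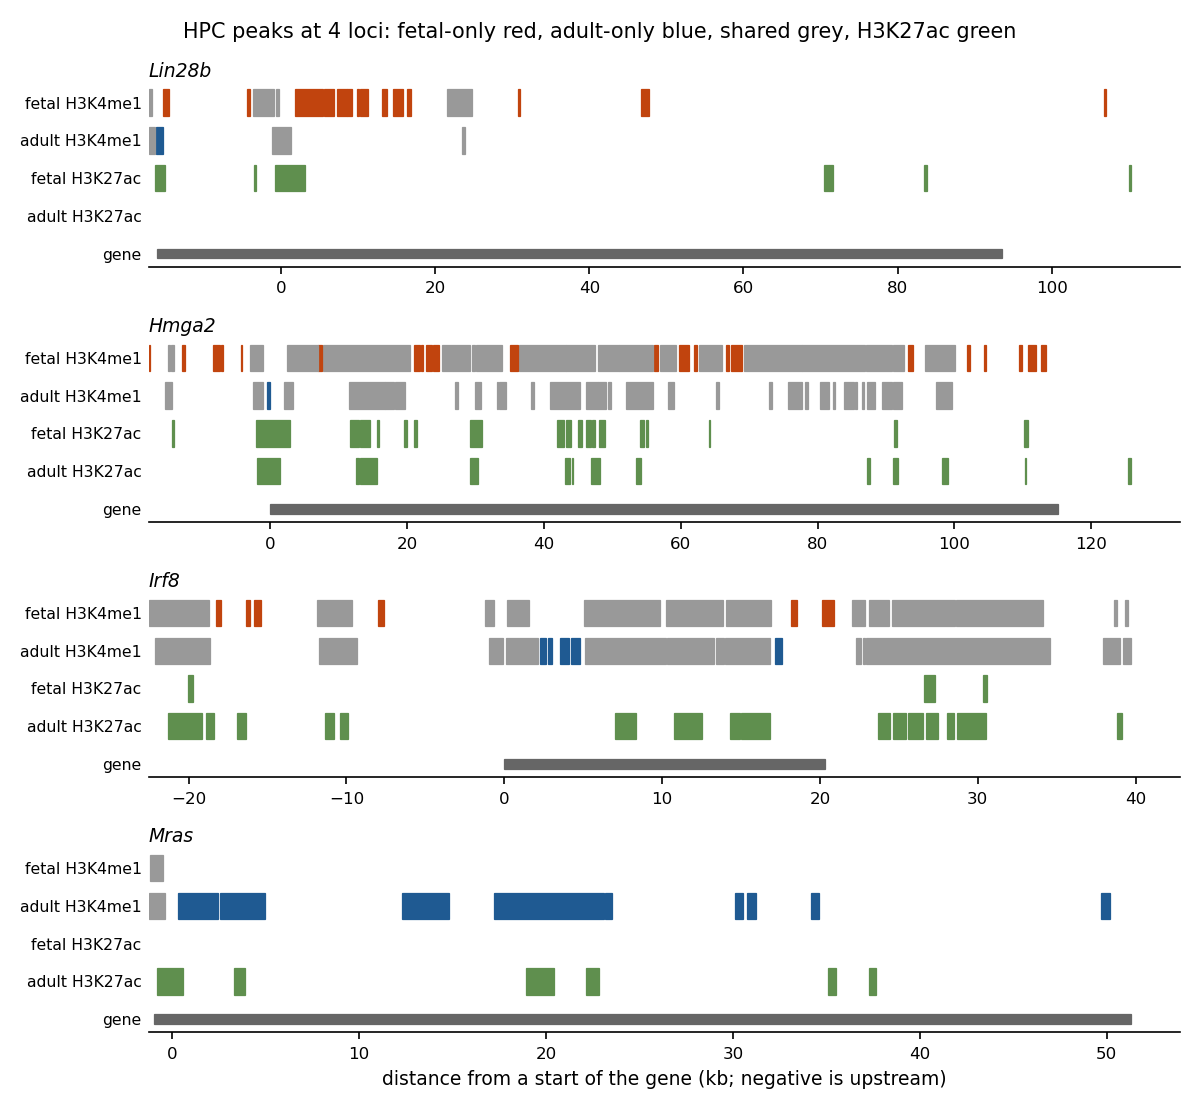
Peaks at Lin28b, Hmga2, Irf8 and Mras as bars along the distance from a start of the gene (horizontal axis, kb), with H3K4me1 above H3K27ac for each age and the gene body below. Fetal-only peaks are red, adult-only peaks blue, shared peaks grey and H3K27ac peaks green. Lin28b has no adult H3K27ac peak, and at Mras all but 1 of 10 adult peaks are adult-only.

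Interferon and antigen presentation genes had 23 strong fetal-only and 16 adult-only peaks (59.0% fetal), and 3 of 36 leaned each way. The adult-leaning genes act in antigen presentation. Ciita, the master regulator of MHC class II genes, had 12 adult and 5 fetal peaks, 8 and 0 of them age-only, and 4 adult against 0 fetal H3K27ac peaks. Its strongest adult-only site, chr16:10486633-10489862, was 3230 bp wide with a fold of 5.99. H2-Q7, an MHC class Ib gene, had 3 strong adult-only peaks and Nlrc5, the class I counterpart of Ciita, 2, with none fetal-only. H2-Q7 has close paralogs, so its counts are uncertain. The fetal-leaning genes were Irf2 (10 and 0), Ifit2 (3 and 0) and Ifnar1 (2 and 0), an interferon repressor, an effector and a receptor chain.

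Developmental regulators that are silent in blood leaned adult most often. They had 27 strong fetal-only and 42 adult-only peaks (39.1% fetal), with 10 of 50 genes leaning adult and 3 fetal. Pax7, a muscle and neural crest factor, had 5 strong adult-only peaks, and Foxa2, Six2 and Wt1 had 3 each, with no strong fetal-only one at these 4 genes. Evx1 and Nkx6-1 went the other way at 4 and 0 and 4 and 1. Of the 42 adult-only peaks 12 lay within 1 kb of a start. H3K27ac was scarce at the list, with 20 fetal and 36 adult peaks over 50 genes, while the second K27 set had 1211 and 1500. The hepatocyte list, at 3 and 4, held too few age-only peaks to be read.

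Consecutive age-only loci formed runs, counted where neighbours of the same class lay within 100 kb with no locus of another class between them. Fetal-only loci formed 2400 runs of 5 or more, which held 22.6% of them, and adult-only loci 359 such runs with 7.90%. Of all 178815 loci, 70078 were fetal-only and 28267 adult-only, and the commoner class has more room for long runs. These shares therefore do not say which class was the more clustered, and the part of class frequency was not tested. The longest fetal run had 25 loci over 93.2 kb across Bcl2l14 and Lrp6. It was followed by 24 loci in Peak1, a kinase-family gene of the cytoskeleton, and by 20 loci each at Btaf1, Calcrl and Fut8. In the same 5 intervals the fetal HSC list had from 23 to 44 peaks and the adult HSC list from 1 to 6.

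The longest adult run lay outside coding genes, in the variable region of the immunoglobulin heavy chain locus Igh, where V segments are rearranged in B cell precursors. It held 28 adult-only loci over 385 kb, chr12:114381100-114766363, among 36 V segments, with folds from 2.07 to 7.48 and a median width of 942 bp. In this run the adult HSC list had 1 peak and the fetal HSC list 0, and H3K27ac had 7 adult peaks and 1 fetal peak. Over the whole span of Igh V segments, chr12:113572929-116009954, 122 of 192 adult peaks were adult-only (63.5%; 56.5 to 70.0) and 4 of 107 fetal peaks fetal-only (3.74%; 1.46 to 9.22). Of the adult-only peaks 49 were strong and of the fetal-only peaks 0. The adult H3K27ac list had 101 peaks there and the fetal list 20, for HSC H3K4me1 the numbers were 46 and 12, and for the second K27 set 52 and 4.

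Other antigen receptor loci did not share that pattern. Over the V segments of Igk, 1 of 5 adult and 4 of 8 fetal peaks were age-only. The T cell receptor alpha region had 23 of 83 adult and 38 of 105 fetal peaks age-only, and the beta region 8 of 57 and 51 of 92. The 15 B cell genes gave small numbers, 5 strong adult-only and 9 fetal-only peaks (64.3% fetal against 76.5% over all genes). The adult list held more H3K27ac peaks at 10 of them and fewer at 1. Blk, a B cell kinase, had 2 strong adult-only and 0 fetal-only peaks. Blnk, a B cell linker, had 2 and 1, and Ebf1, a factor of B cell commitment, 1 and 6. Pax5 had 7 fetal and 5 adult peaks. The part of B lineage cells in the Igh peaks was not tested.

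The other long adult runs held 19 loci around Adgrb1 and Arc on chromosome 15, 17 at the MHC genes H2-Q4 and H2-Q6, and 15 each at Wnt3a with Wnt9a, at Atp2b2 and around Tmem52. In the H2-Q interval the adult HSC list had 18 peaks and the fetal HSC list 2, and at the Wnt genes 16 and 3. H2-Q4 and H2-Q6 are paralogs of H2-Q7, so the counts in the H2-Q interval are uncertain as well. Sites with the highest fold lay partly at the same loci. The adult-only peaks with the highest fold were the Fcgr3 site, a 5872 bp peak in Mras (fold 8.38), a 3564 bp peak in Wnt9a (8.23) and a 2263 bp peak in Duoxa1 (7.58). Mras, a RAS-family GTPase gene, had 10 adult peaks and 1 fetal peak. By −log10 p, peaks near Scaf8 and in Sfi1 also stood among the first 4 adult-only ones, though their folds were 3.08 and 2.71, below the adult median of 3.22. Sfi1 had 8 adult peaks and no fetal peak in all, 7 of them strong by −log10 p. The highest fold among the 8 was 3.02, also below that median. How reads mapped at the Scaf8 and Sfi1 sites was not tested.

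Among fetal-only peaks the same 4 sites were first by −log10 p and by fold. They lay in Cntrl, a centriole gene (4105 bp, fold 9.21), 32.9 kb from Lrp12 (1903 bp, 8.77), in Tent4b, a poly(A) polymerase gene (2053 bp, 8.30), and in Vdr, the vitamin D receptor gene (1697 bp, 7.98). Each of the 4 was overlapped by fetal HSC H3K4me1, and 3 of them, all but the Lrp12 site, by adult HSC H3K4me1. Chromosomes also differed in the share of each list's peaks that was age-only. The fetal-only share ran from 34.7% on chromosome 17 to 48.3% on X, and the adult-only share from 1145 of 6371 peaks on chromosome 3 to 31.6% on X.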

How the data were processed

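Sorted cells were profiled by ChIPmentation, per the labels' protocols. The submitters' processing notes name Novoalign and MACS2, with no version, and the builds mm10 and GRCm38. Input libraries are labelled, but neither their use in peak calling nor any filter is stated. Each deposited peak list holds 1 entry per peak with a fold enrichment over background (a ratio), a −log10 p value and a −log10 q score, all made by the authors' peak caller. There is 1 list per group, named in the labels of all its libraries and taken as pooled. The lists also hold a summit offset (another number, deposited and not used). Depth per library is unknown.

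Peaks were compared by position in Python 3.11.15 with pandas and numpy. Overlap, nearest-gene and start-distance counting were checked on simulated intervals. Gene bodies (21883 coding genes), starts (21262 of 17491 genes, none on chromosome 18) and hairpins came from RefSeq tables on GRCm38.p6. Distances were taken to the nearest base. Of 524 distinct names in 23 gene lists, 521 matched a coding gene. Genes were named by rule: in each direction the 6 with the largest difference in strong age-only peaks, up to 2 per list, those nearest the 5 longest runs and nearest the 4 strongest age-only peaks by −log10 p and by fold, and 8 reference loci. Any other gene was named after its values were seen, and some genes that the rule names are not reported here. The members, lists and tests were chosen with earlier results of these data known. No genome sequence was used, so peaks have no sequence here.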

Additional observations from a re-analysis of the deposited data

How the results depend on the processing

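The shares of fetal-only and of adult-only peaks moved with the definition of overlap and with the length of the lists. Asking for an overlap of at least 50% of the shorter peak gave 43.8% and 26.0% (difference 17.8 points), counting a peak within 500 bp as shared 30.2% and 16.2% (13.9), joining peaks within 1 kb 31.6% and 18.8% (12.8), keeping peaks at least 500 bp wide 30.2% and 23.1% (7.08), and a −log10 q of at least 5 gave 37.1% for fetal-only peaks (difference 14.6). The difference changed sign with lists cut to equal length (29.4% and 30.2%, −0.76 points) and for the strongest 20000 peaks (1.32% and 1.52%, −0.20 points). Fetal H3K27ac on fetal-only peaks was 7.48% among strong peaks, 7.86% at 500 bp or wider, 5.77% at equal length, 3.99% with the stricter overlap and 4.11% over 1 kb from starts. In that order, adult H3K27ac on adult-only peaks was 31.9%, 28.2%, 19.1%, 13.5% and 13.8%, and adult HSC H3K4me1 on them 80.5%, 73.4%, 56.3%, 49.5% and 49.3%. Fetal HSC H3K4me1 on fetal-only peaks was 86.1%, 84.3%, 75.9% and 60.6% under the first 4. Within 1 kb of a start were 1.96% of fetal-only and 18.7% of adult-only strong peaks, and 4.48% and 15.8% when either end of any coding gene replaced the starts. At equal length 11.5% of adult-only peaks were near a start. Genes leaning adult numbered 1072 at equal length, and with full lists in place of strong peaks 2284 leaned adult and 6374 fetal. The balance of fetal-only minus adult-only peaks changed sign at Trf at equal length (−1), in the myeloid list with the stricter overlap (1), and with full lists at 4 of the 110 named genes, among them Acvr1 (1), Ccne1 (3) and Ltbp1 (1). No further list or named gene changed sign under these settings or with genes assigned within 20 kb. The side of the all-gene fetal share on which a list lay changed in further cases. With full lists (71.0% over all genes), imprinted genes fell below it at 61.3% and cell cycle genes at 69.5%. T and NK cell genes, at 71.9%, rose above it. Within 20 kb (77.0% over all genes), immediate early genes fell below it at 72.2% and inflammatory genes rose above it at 82.4%. The distance from starts and the gene ends were added as settings after seeing the data. No paired analysis was possible because the libraries of a group are pooled in 1 list, and for the same reason leaving out a replicate was not run. The depth of the libraries is unknown, so its part in the list lengths was not tested.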
